A study of Mus musculus with 2 samples.

Results

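The genes described here encode the core of the microRNA silencing complex. They are the 4 Argonaute genes Ago1, Ago2, Ago3 and Ago4 and the 3 TNRC6 genes Tnrc6a, Tnrc6b and Tnrc6c, chosen by symbol as 7 of the 20476 genes in a table of UMI counts (a UMI tags 1 captured mRNA molecule). All 7 symbols had a row. The cells were total testicular cells of adult mice of strain C57BL/CJ;ICR, from miR-202-/- animals in 1 library and from WT animals in 1 library. Cell debris was removed by sorting before the cells were loaded for droplet 3′ sequencing, per the labels' protocols.

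Barcode names in the table end in 1 or 2, and no source used here ties either ending to a genotype. Each ending is therefore called a mark, every value is given under mark 1 and under mark 2, and knockout and wild type were not compared. Mark 1 had 12935 barcodes with a median of 6061 UMIs, and mark 2 had 15310 with a median of 5509. How many mice stand behind a library is unknown here, so the intervals below cover counting error only and no p-value is given.

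Argonaute proteins hold a microRNA and use its seed, bases 2 to 8 from the 5′ end, to find target mRNAs. AGO2 can also cut a perfectly matched target. TNRC6 proteins, the mammalian GW182 family, bind Argonaute through glycine-tryptophan repeats and recruit the PAN2-PAN3 and CCR4-NOT deadenylases, which shorten the poly(A) tail ahead of decapping and decay. In mice Ago4 is known for roles at the entry into meiosis and in the silencing of the sex chromosomes in pachytene spermatocytes. Germ cells also use the PIWI proteins, a separate branch of the Argonaute superfamily that binds piRNAs.

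The microRNA removed in the knockout acts through the same complex, and its sequences are shown because its possible sites lie in several of the genes themselves. Both mature arms are printed 5′ to 3′ from RefSeq (mouse build GRCm38.p6, chromosome 7, minus strand), with the seed in capitals.
mmu-miR-202-5p: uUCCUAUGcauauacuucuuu
mmu-miR-202-3p: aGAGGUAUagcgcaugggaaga

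The 7-base matches to these seeds, CATAGGA for the 5p arm and ATACCTC for the 3p arm, were counted on the sense strand of the longest annotated 3′ UTR of each gene (GENCODE M21, GRCm38). These UTRs ran from 2345 bases in Tnrc6a to 12742 bases in Ago3. Matches to the 5p seed occurred in 3 of the 7 genes, beside 7.60% of 20964 mouse 3′ UTRs and 19.2% of the 5333 UTRs of at least 2000 bases. Matches to the 3p seed occurred in 4 of the 7 genes, beside 5.88% of all UTRs and 14.04% of the long ones. These shares are not matched for length, since Ago2, Ago3 and Tnrc6b have UTRs of 11064, 12742 and 11609 bases. Over all UTRs there were 0.0584 matches per kb to the 5p seed and 0.0438 to the 3p seed. Whether the 7 genes hold more matches than their lengths give was not tested. Tnrc6c held neither match, and Ago4 held both. The 8 matches are shown in capitals with 11 bases on either side, on the strand of the mRNA.
Ago1, 5p match, chr4:126435854-126435882: atctggcatcaCATAGGAggatggaattt
Ago2, 5p match, chr15:73105654-73105682: aaggtgggtttCATAGGAtctatgcactg
Ago2, 5p match, chr15:73099552-73099580: gtgtggtgtcaCATAGGActccagctttg
Ago4, 5p match, chr4:126490322-126490350: gggctagggagCATAGGAcattaagaacg
Ago3, 3p match, chr4:126341988-126342016: atagtctggaaATACCTCtgcttatgacc
Ago4, 3p match, chr4:126491181-126491209: tttttctgcaaATACCTCcctgggataat
Tnrc6a, 3p match, chr7:123194896-123194924: gttaacctctcATACCTCacacagtgggg
Tnrc6b, 3p match, chr15:80938521-80938549: gacacaaaatgATACCTCaaggtatatct
A match is a run of letters in an annotated transcript. Whether any of them is used was not tested, since no source ties a barcode to a genotype.

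Ago3, Ago1 and Ago4 lie next to each other on the minus strand of chromosome 4 (GRCm38), at chr4:126331704-126429556, chr4:126435012-126468583 and chr4:126489541-126533472. The gap between Ago3 and Ago1 is 5.46 kb and that between Ago1 and Ago4 is 21.0 kb. Ago2 lies at chr15:73095844-73184935 on the minus strand, and Tnrc6b at chr15:80711313-80941085, Tnrc6a at chr7:123123885-123195296 and Tnrc6c at chr11:117654289-117763439 lie on the plus strand. The 3′ end of Ago2 overlaps Chrac1 on the opposite strand, and no label or file header says how strand was used in counting.

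Cells were taken by marker genes, with cuts set on the markers and without the 7 genes. A gate took a barcode by the share of its UMIs in the marker list, the number of markers detected and, for most germ gates, cuts on the lists of other stages. The gates from pachytene to elongating spermatids also needed 10000 UMIs a barcode, and the spermatogonia, leptotene to zygotene and somatic gates had no such minimum. The 12 gates held 8885 of the 28245 barcodes, 7 of them germ cells in the textbook order from spermatogonia (95 barcodes under mark 1 and 115 under mark 2) through leptotene to zygotene (162 and 135), pachytene (321 and 322) and diplotene and dividing spermatocytes (403 and 438) to early round (678 and 899), later round (189 and 132) and elongating spermatids (1770 and 1999). Sertoli cells, which nurse the germ cells in the tubule, had 459 and 425 barcodes. Leydig cells, macrophages, T or NK cells and stromal or peritubular cells had 32 to 53 barcodes under each mark. Levels are counts scaled to the total UMIs of the gate (CPM) with exact Poisson 95% intervals. A molecule counts once at its 3′ end whatever its length, so that levels of different genes are shares of UMIs.

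Low-RNA barcodes, which passed no gate and had under 6000 UMIs, served as a stand-in for free RNA in the droplets: 5912 barcodes under mark 1 and 7698 under mark 2. Their median was 4536 and 4148 UMIs, beside 4885 and 4277 in the Sertoli gate. Some may therefore be cells that passed no gate, which was not tested. Levels called free RNA or background below rest on this stand-in. By protamine and transition protein UMIs, which mark elongating spermatids, the free-RNA share was 42.3% and 44.5% in the spermatogonia gate, 46.4% and 58.7% in the leptotene to zygotene gate, and 11.5% and 12.5% in the pachytene gate. In the Sertoli gate the same estimate reached 124% and 117%, so its levels cannot be told from free RNA where they do not exceed those of the low-RNA barcodes. A call between gates needed a CPM ratio of at least 1.5 in the same direction under both marks and at least 20 UMIs in the higher gate under each mark. In bulk sums of this kind fewer expressing cells and less RNA per cell cannot be told apart.

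**Figure D1:**
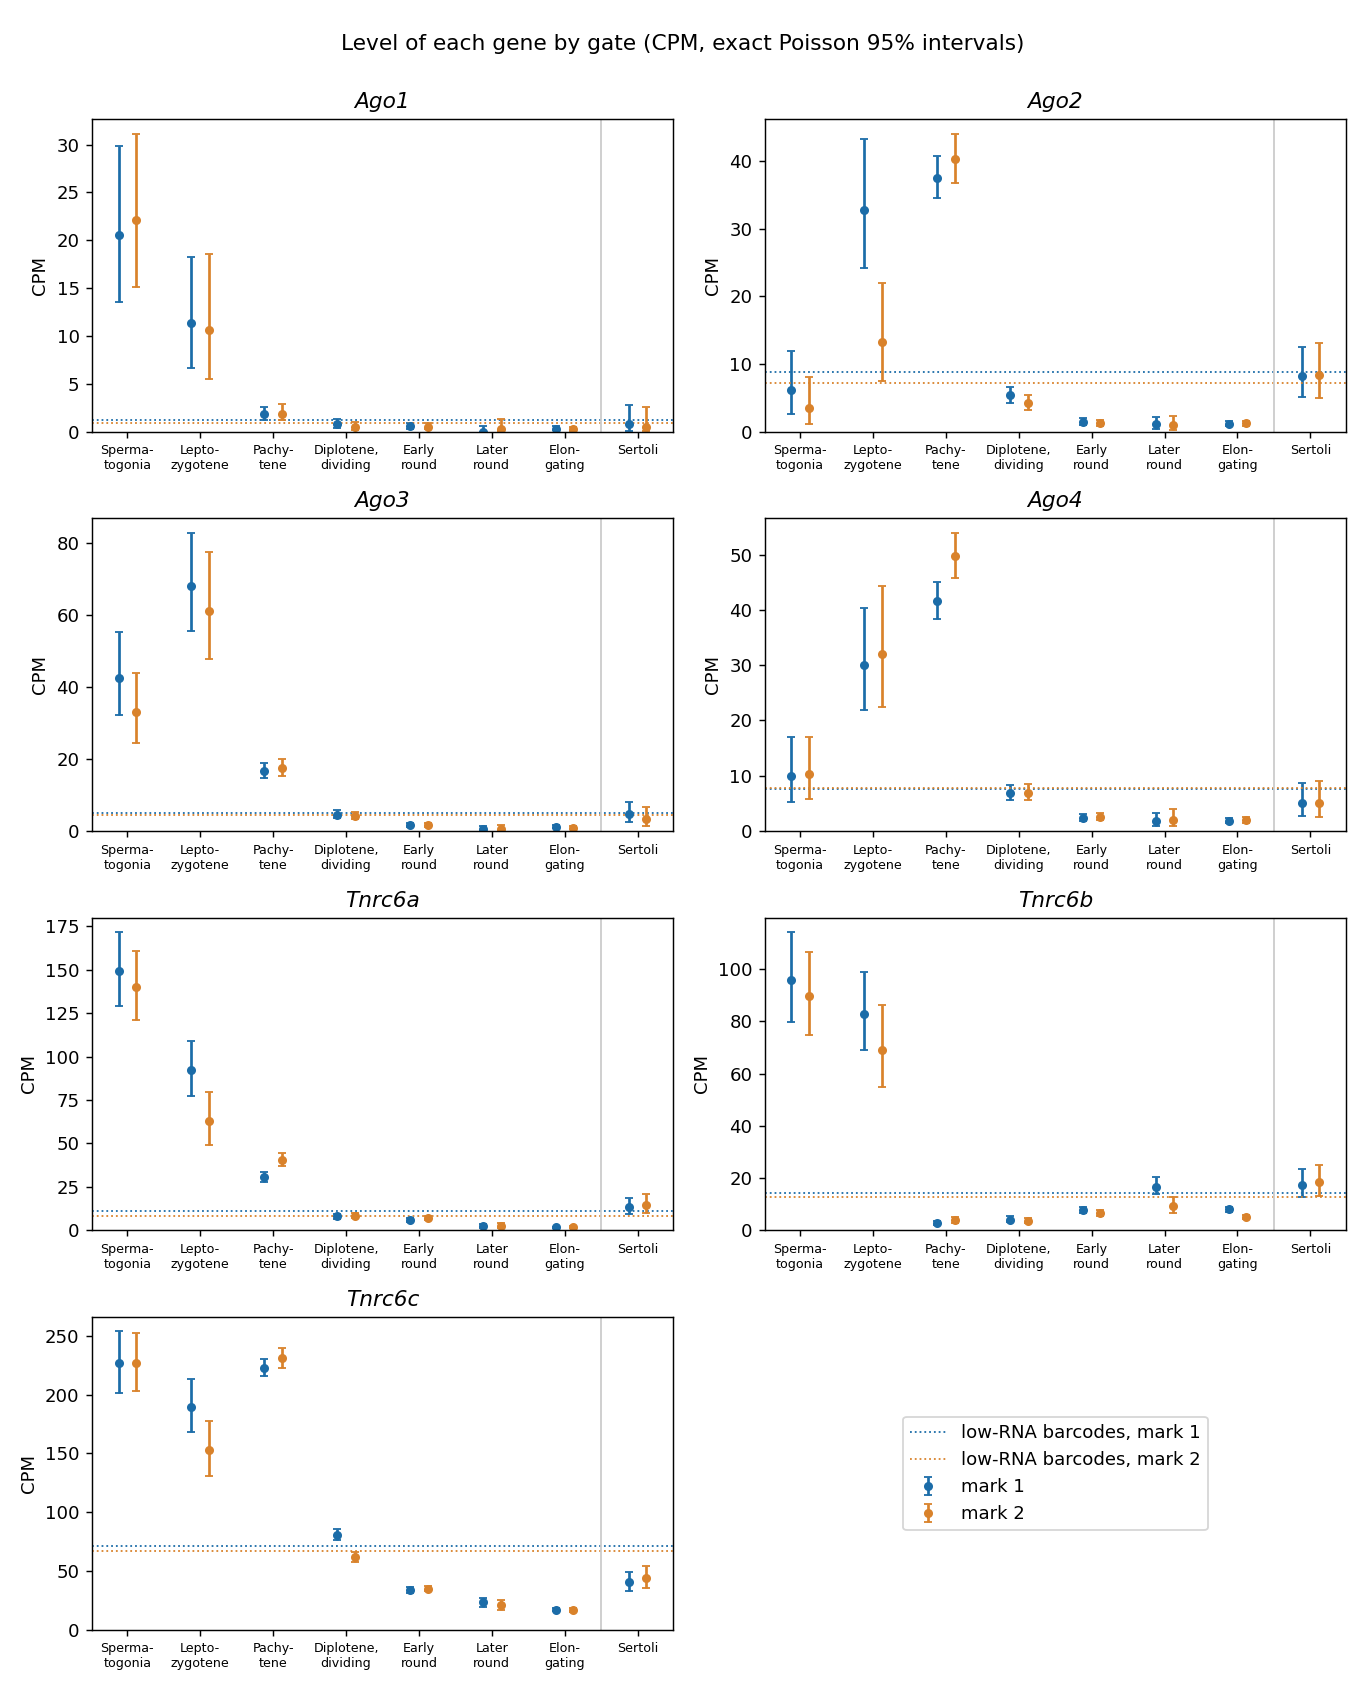
Level of each gene in CPM (vertical axis, linear from 0, scaled per panel) in the 7 germ gates in developmental order and in the Sertoli gate, under mark 1 (blue) and mark 2 (orange), with exact Poisson 95% intervals; dotted lines give the level in low-RNA barcodes. Ago1, Tnrc6a and Tnrc6b stood highest in spermatogonia, Ago3 in leptotene to zygotene cells and Ago2 and Ago4 in pachytene cells, and Tnrc6c was near 230 CPM in both spermatogonia and pachytene cells under mark 2.

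Among the germ gates, the Argonaute genes divided into a pair that stood highest before pachytene and a pair that stood highest in pachytene cells. Ago1 had 20.5 and 22.1 CPM in spermatogonia, 11.4 and 10.6 CPM in leptotene to zygotene cells and 1.79 and 1.88 CPM in pachytene cells under marks 1 and 2. From diplotene on it was at or below 0.735 CPM, and in later round spermatids it had 0 UMIs under mark 1 (an upper limit of 0.568 CPM) and 1 UMI under mark 2. Spermatogonia thus had the highest level of Ago1 among the germ gates, with a UMI in 24.2% of barcodes under mark 1 and 17.4% of barcodes under mark 2.

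Ago3 had 42.6 and 33.1 CPM in spermatogonia, 68.2 and 61.2 CPM in leptotene to zygotene cells, 16.6 and 17.5 CPM in pachytene cells and 4.54 and 4.18 CPM in diplotene and dividing cells. It was the Argonaute with the most UMIs in both of the first gates. In round and elongating spermatids it stayed between 0.455 and 1.65 CPM.

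Ago4 had 9.89 and 10.3 CPM in spermatogonia, 30.1 and 31.9 CPM in leptotene to zygotene cells, 41.6 and 49.7 CPM in pachytene cells and 6.81 and 6.92 CPM in diplotene and dividing cells. At the pachytene level it was detected in 77.3% and 78.9% of barcodes. Spermatids had 1.81 to 2.56 CPM.

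Ago2 had 6.09 and 3.45 CPM in spermatogonia, 37.5 and 40.3 CPM in pachytene cells and 5.34 and 4.18 CPM in diplotene and dividing cells. Its spermatogonia level was below that of the low-RNA barcodes, 8.82 and 7.14 CPM. With free RNA subtracted, 3.85 CPM was left there under mark 1 and 0.459 CPM under mark 2. These levels rest on 8 and 5 UMIs and are not told apart from background. In leptotene to zygotene cells the marks differed, with 32.7 CPM under mark 1 (49 UMIs in 25 barcodes, 8 of them in 1 barcode) and 13.3 CPM under mark 2 (15 UMIs in 14 barcodes). Pachytene list UMIs in that gate were alike, at 26.8 and 28.3 per 10000.

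Chrac1, the gene that overlaps the 3′ end of Ago2, rose with Ago2 up to pachytene and parted from it after that. It had 238 and 253 CPM in spermatogonia and 362 and 374 CPM in leptotene to zygotene cells. Pachytene cells had 849 and 736 CPM, and diplotene and dividing cells 1079 and 1053 CPM. Diplotene cells thus had more Chrac1 and less Ago2 than pachytene cells, while both genes were higher in pachytene cells than in spermatogonia. Whether Chrac1 molecules were counted as Ago2 was not tested.

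Among the TNRC6 genes, Tnrc6c gave the most UMIs in every germ gate. It had 227 CPM in spermatogonia under each mark, 190 and 153 CPM in leptotene to zygotene cells, 223 and 231 CPM in pachytene cells, 80.9 and 61.7 CPM in diplotene and dividing cells, 33.9 and 34.8 CPM in early round spermatids, 23.3 and 20.9 CPM in later round spermatids and 17.1 and 16.7 CPM in elongating spermatids. Low-RNA barcodes had 71.2 and 66.6 CPM, so the levels up to pachytene stood above free RNA.

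Tnrc6a had 149 and 140 CPM in spermatogonia, 92.2 and 63.0 CPM in leptotene to zygotene cells, 30.6 and 40.5 CPM in pachytene cells and 8.01 and 8.29 CPM in diplotene and dividing cells. It was lower in each of these gates than in the one before. In elongating spermatids 1.67 and 2.07 CPM were left.

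Tnrc6b was lowest in pachytene and diplotene cells and higher on either side. It had 95.9 and 89.6 CPM in spermatogonia, 82.9 and 69.2 CPM in leptotene to zygotene cells, 2.72 and 3.93 CPM in pachytene cells and 4.14 and 3.70 CPM in diplotene and dividing cells. It then had 7.75 and 6.60 CPM in early round, 16.8 and 9.33 CPM in later round and 8.10 and 5.23 CPM in elongating spermatids. Low-RNA barcodes had 14.4 and 12.7 CPM, and of the spermatid levels only that of later round spermatids under mark 1 was above them, so the spermatid values cannot be told from free RNA by level alone. With free RNA subtracted, early round spermatids kept 6.41 and 5.45 CPM and diplotene and dividing cells 2.58 and 2.36 CPM. Later round and elongating gates make protamine themselves, and no free RNA could be subtracted there.

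The step from spermatogonia to leptotene and zygotene brought changes in both directions. Of the 6 genes measured, Ago3 and Ago4 were called higher in leptotene to zygotene cells, beside 15.4% of 8876 genes, and Ago1 and Tnrc6a lower, beside 17.9%. The ratios of Ago4 were 3.04 (95% interval 1.61 to 6.14) and 3.09 (1.65 to 6.07). Ago3 was 1.60-fold and 1.85-fold higher, and Tnrc6a 1.62-fold and 2.22-fold lower, a call that was lost with free RNA subtracted. With the 10000-UMI minimum put on both gates, which left 48 and 28 leptotene to zygotene barcodes, Ago3, Ago4 and Tnrc6a were not called, and Ago4 had 12 UMIs there under mark 2. Ago1 was 1.81-fold and 2.07-fold lower, and its interval covers 1 under mark 1. The median log2 ratio of the 7 genes was -0.21 and -0.37, beside 0.20 and 0.21 over all genes.

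At the next step Tnrc6b had the largest difference of the 7 genes. In pachytene against leptotene to zygotene cells, 3 of 6 measured genes were called lower, beside 31.7% of 9705 genes, and 0 were called higher, beside 26.5%. Tnrc6b was 30.4-fold lower under mark 1 (21.2 to 44.4) and 17.6-fold lower under mark 2 (12.1 to 25.9). Ago3 was 4.10-fold and 3.50-fold lower, and Tnrc6a 3.01-fold and 1.56-fold lower, a call that was lost with stricter gates. Ago2 (1.15-fold and 3.03-fold), Ago4 (1.38-fold and 1.56-fold) and Tnrc6c (1.17-fold and 1.51-fold) missed 1.5-fold under mark 1.

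The calls at this step depended on the scale. The median was 37380 UMIs in pachytene barcodes and 7858 in leptotene to zygotene barcodes, a gap that the 10000-UMI minimum of the pachytene gate sets in part. With TMM scaling, which moves every log2 ratio of the step by 0.68 under mark 1 and 0.58 under mark 2, Ago2, Ago4 and Tnrc6c were called higher and Tnrc6a was no longer called. Per 100 barcodes, Tnrc6b had 12.8 and 14.3 UMIs in pachytene cells, against 76.5 and 57.8 in leptotene to zygotene cells. Ago3 had 77.9 and 63.7 UMIs per 100 pachytene barcodes, against 63.0 and 51.1 per 100 leptotene to zygotene barcodes. With the 10000-UMI minimum put on both gates, leptotene to zygotene barcodes had 104 and 85.7 UMIs of Tnrc6b and 97.9 and 71.4 UMIs of Ago3 per 100 barcodes. Tnrc6b was then again lower per barcode in pachytene cells, and so was Ago3, whose order without the minimum was the opposite. The calls of Tnrc6b, Ago3 and Tnrc6a in CPM were kept with that minimum.

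**Figure D2:**
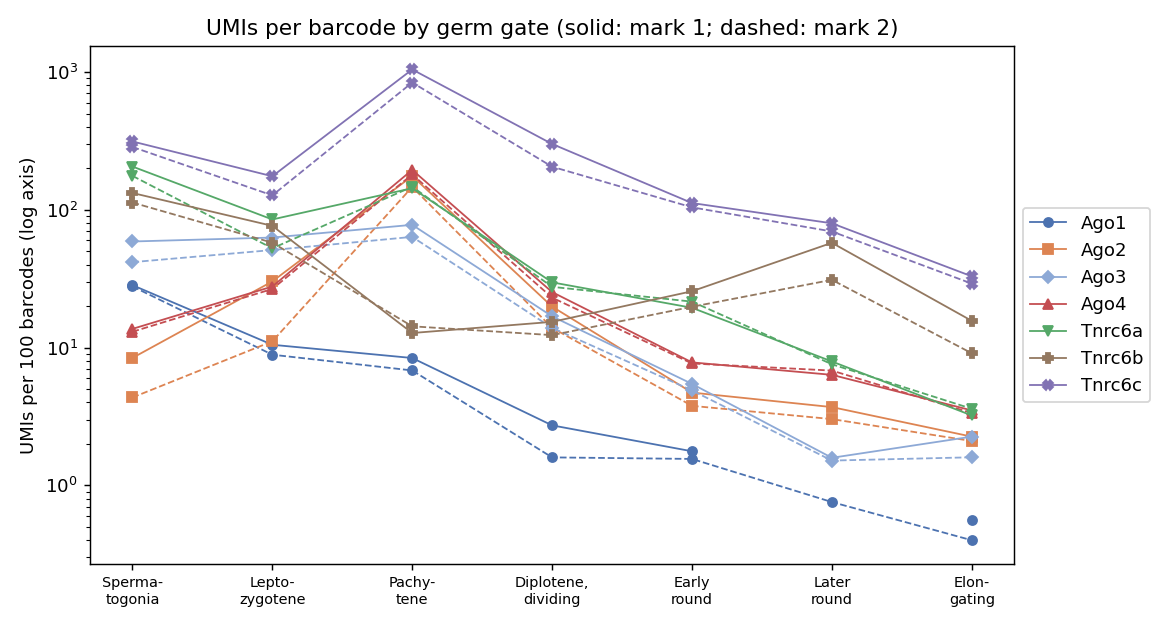
UMIs per 100 barcodes (log axis) for each gene across the 7 germ gates in developmental order, under mark 1 (solid) and mark 2 (dashed); the 0 for Ago1 in later round spermatids under mark 1 is not drawn. Ago2, Ago3, Ago4 and Tnrc6c were highest in pachytene cells, a gate with a 10000-UMI minimum that the gates before it lack, and Tnrc6b was at 12.8 and 14.3 UMIs per 100 barcodes there.

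Set directly against spermatogonia, pachytene cells had a changed set of Argonautes. Ago2 had pachytene over spermatogonia ratios of 6.17 (3.11 to 14.4) and 11.7 (4.98 to 36.2). Its denominators rest on 8 and 5 UMIs and lay below the level of the low-RNA barcodes. Ago4 had ratios of 4.21 (2.44 to 7.94) and 4.81 (2.89 to 8.65). These 2 of the 7 genes were called higher, beside 31.1% of 10384 genes, and Ago1, Ago3, Tnrc6a and Tnrc6b lower, beside 35.7%. Ago1 was 11.4-fold and 11.7-fold lower and Tnrc6b 35.2-fold and 22.8-fold lower, while Tnrc6c had ratios of 0.983 (0.873 to 1.11) and 1.02 (0.908 to 1.15). With TMM scaling Tnrc6c was called higher and Ago3 was not called, and Ago3 was also not called with stricter gates.

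The mix within each family does not depend on the total of the gate. Ago2 and Ago4 together gave 20.2% of Argonaute UMIs in spermatogonia under mark 1 (exact binomial 95% interval 12.96 to 29.2) and 20% under mark 2 (12.7 to 29.2). With free RNA subtracted these shares were 13.03% and 11.9%. In leptotene to zygotene cells they gave 44.1% and 38.6%. In pachytene cells they gave 81.1% (79.0 to 83.1) and 82.3% (80.1 to 84.3), of 1468 and 1281 Argonaute UMIs.

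The majority thus passed to the other pair of genes between the first and the third gate under both marks. In diplotene and dividing cells Ago2 and Ago4 gave 69.7% and 70.4%, and in early round spermatids 63.4% and 64.0%. Low-RNA barcodes had 72.4% and 73.4%, and the Argonaute levels of the last-named gates lay below theirs. After subtraction of free RNA, diplotene and dividing cells kept 4.81 and 3.73 CPM of Ago2 and 6.70 and 6.79 CPM of Ago4. They kept 4.47 and 4.12 CPM of Ago3 and 0.657 and 0.425 CPM of Ago1, most of each level. Early round spermatids kept 0 and 0.160 CPM of Ago2 and 1.33 and 1.58 CPM of Ago4. The early round share is therefore not read as a mix of the cells. The later round gate had only 22 and 16 Argonaute UMIs in all. Ago1 gave 25.96% and 32.0% of Argonaute UMIs in spermatogonia and 1.84% and 1.72% in pachytene cells.

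Among TNRC6 UMIs, Tnrc6c gave 48.1% and 49.7% in spermatogonia, 52.0% and 53.6% in leptotene to zygotene cells and 87.0% and 83.9% in pachytene cells. Tnrc6b gave 20.3% and 19.6% in spermatogonia, 1.06% and 1.43% in pachytene cells and 30.2% and 21.7% in elongating spermatids. In pachytene cells the TNRC6 message was thus mostly Tnrc6c with some Tnrc6a.

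**Figure D3:**
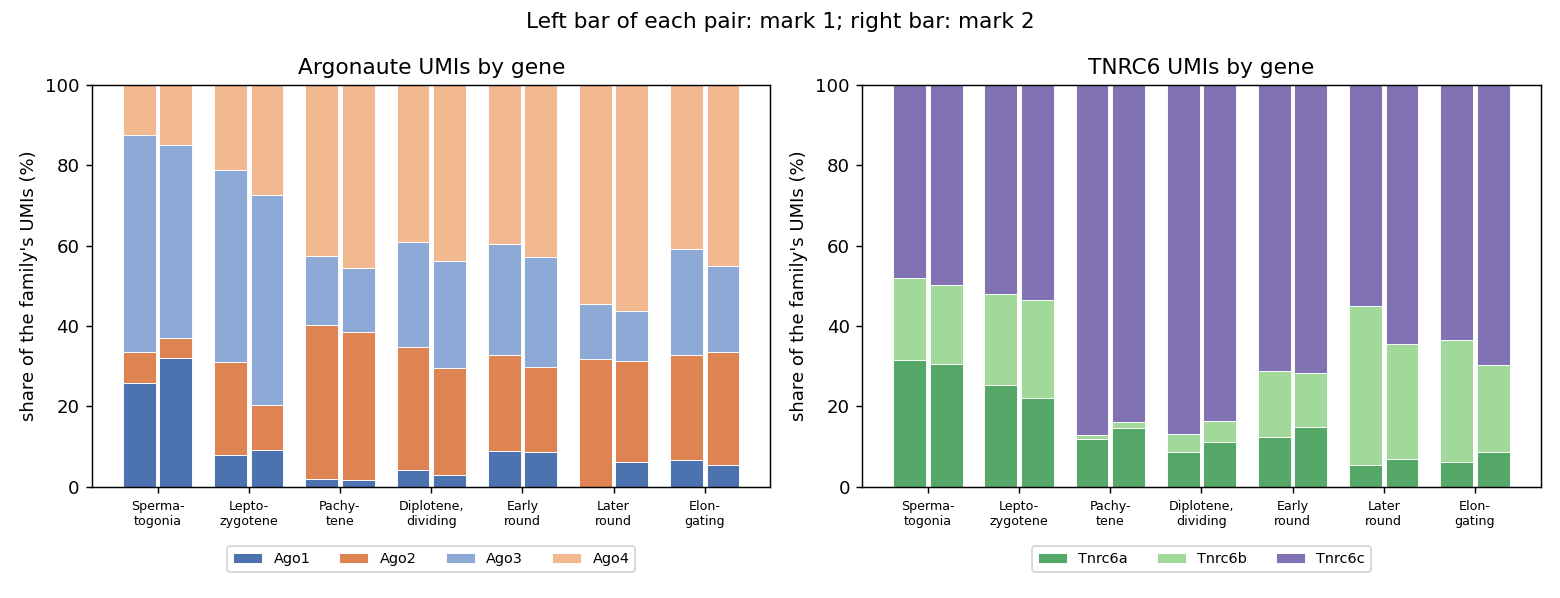
Share of each gene in its family's UMIs (%, vertical axis) in the 7 germ gates, with mark 1 on the left and mark 2 on the right of each pair of bars; Argonautes are in the left panel and TNRC6 genes in the right panel. Ago2 and Ago4 (orange) filled 20.2% and 20% of the bar in spermatogonia and 81.1% and 82.3% in pachytene cells, and Tnrc6b shrank to 1.06% and 1.43% in pachytene cells.

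Almost the whole set was lower after pachytene. In diplotene and dividing against pachytene cells, 6 of 7 genes were called lower, beside 32.9% of 13088 genes, and 0 higher, beside 26.3%. Ago2 was 7.03-fold lower under mark 1 (5.55 to 8.997) and 9.65-fold under mark 2 (7.38 to 12.8), and Ago4 6.11-fold and 7.18-fold. Tnrc6c was 2.75-fold and 3.74-fold lower, Tnrc6a 3.82-fold and 4.88-fold, Ago3 3.66-fold and 4.19-fold and Ago1 2.44-fold and 3.92-fold. The median log2 ratio of the 7 genes was -1.87 and -2.07, beside -0.12 and -0.14 over all genes.

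Tnrc6b, which was already low, was the gene not called at this step, with ratios of 1.52 (1.01 to 2.31) and 0.942 (0.624 to 1.43). The median UMI count was 25166 in diplotene and dividing barcodes and 37380 in pachytene barcodes, so the fall per barcode was larger than that in CPM. Ago2 had 19.9 and 13.9 UMIs per 100 diplotene and dividing barcodes, against 176 and 147 per 100 pachytene barcodes.

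In early round spermatids against diplotene and dividing cells, Ago2, Ago3, Ago4 and Tnrc6c were called lower, 4 of 6 measured genes beside 33.8% of 13567 genes. Tnrc6b was called higher, beside 29.0%, with ratios of 1.87 (1.39 to 2.54) and 1.78 (1.31 to 2.47), a call that was lost with looser gates and with means over barcodes. Ago2 was 3.75-fold and 3.32-fold lower, Ago4 2.89-fold and 2.71-fold, Ago3 2.76-fold and 2.56-fold and Tnrc6c 2.39-fold and 1.78-fold. The call of Tnrc6c was lost with TMM scaling, and those of Ago2, Ago3 and Ago4 with stricter gates. All 4 genes were below their low-RNA levels in both gates, except Tnrc6c in diplotene and dividing cells under mark 1.

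**Figure D4:**
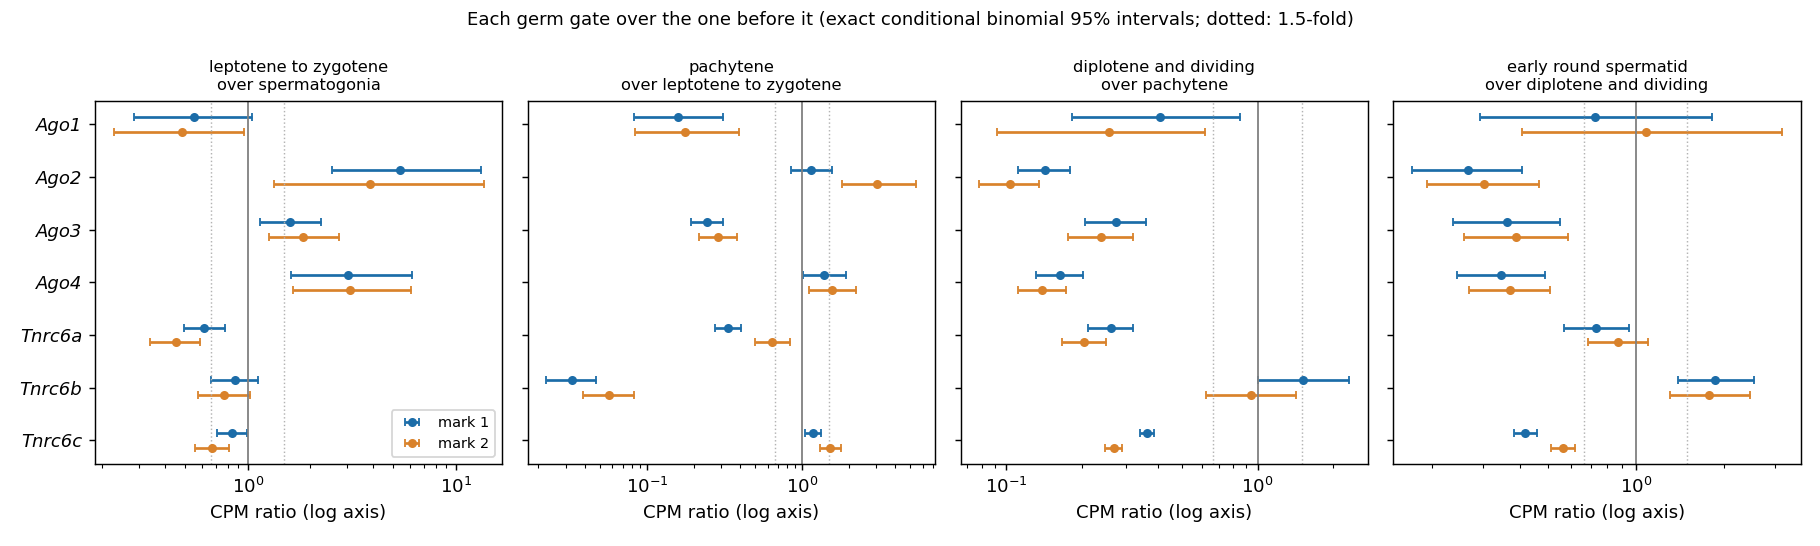
CPM ratio (log axis) of each germ gate over the one before it for the first 4 steps, for each gene under mark 1 (blue) and mark 2 (orange), with exact conditional binomial 95% intervals; dotted lines mark 1.5-fold in either direction. In diplotene and dividing over pachytene cells all ratios lay below 1 except that of Tnrc6b under mark 1, and Tnrc6b lay at 1.87 and 1.78 in early round spermatids over diplotene and dividing cells.

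Within spermatids the counts were small. In later round against early round spermatids, Ago3 and Tnrc6a were called lower, 2 of 6 measured genes beside 39.7% of 12272 genes, and 0 were called higher, beside 15.4%. Tnrc6a was 2.55-fold lower (1.49 to 4.68) and 3.16-fold lower (1.68 to 6.70), while Ago3 rested on 3 and 2 UMIs in later round spermatids and its interval reached 0.935 under mark 2. Tnrc6b had ratios of 2.17 (1.69 to 2.77) and 1.41 (0.981 to 1.99), past 1.5-fold under mark 1 alone.

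In elongating against later round spermatids, Tnrc6b was called lower, 1 of 4 measured genes beside 46.2% of 10167 genes, by 2.07-fold (1.64 to 2.59) and 1.79-fold (1.24 to 2.52). With TMM scaling, which moves every log2 ratio of this step by 0.99 and 1.26, its log2 ratio was -0.06 under mark 1 and 0.43 under mark 2, so that the direction turned under mark 2 and, at 0.18, in the mean. Ago3 was called higher, beside 8.79%, with 2.53-fold (0.807 to 12.8) and 2.02-fold (0.515 to 17.4), and both intervals cover 1. From pachytene to elongating spermatids, 6 of 7 genes were called lower, beside 59.7% of 14069 genes, and 0 higher, beside 28.1%. The falls ran from 32.1-fold and 33.4-fold for Ago2 to 6.13-fold and 8.18-fold for Ago1. Tnrc6b had elongating over pachytene ratios of 2.97 and 1.33 and was not called.

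Over the 6 germ steps there were thus 4 higher and 18 lower calls of the genes. Beside them, 8.79% to 29.0% of all genes measured were called higher and 17.9% to 46.2% lower at a step. With TMM scaling there were 9 higher and 15 lower calls.

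The pachytene gate itself was not uniform, and its barcodes were split at the median of their leptotene to zygotene list, which stood at a median of 65.7 and 61.0 UMIs per 10000 in leptotene to zygotene cells and 26.6 and 34.2 in pachytene cells. Tnrc6a had 67.8 and 67.9 CPM above the median, against 10.9 and 24.1 CPM at or below it, a ratio of 6.22 (5.00 to 7.80) under mark 1 and 2.82 (2.33 to 3.42) under mark 2. Ago2 had 54.6 and 61.7 CPM above the median and 28.5 and 27.5 CPM at or below it. Ago4 had 62.0 and 56.9 CPM above it and 30.7 and 45.4 CPM at or below it.

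Of the 6 genes measured in this split, Ago2, Ago3, Tnrc6a and Tnrc6b were past 1.5-fold in the barcodes above the median, beside 20.4% of 10599 genes, and 0 in those at or below it, beside 14.7%. The barcodes above the median were shallower, with median UMIs of 31297 and 26651 against 58540 and 42586. In UMIs, Ago2 had 285 in 160 barcodes above the median and 280 in 161 at or below it under mark 1, whereas Tnrc6a had 354 and 107. Under mark 2 Ago2 had 271 and 201 and Tnrc6a 298 and 176, in 161 barcodes on each side. Ago3 had 126 and 124 UMIs above and at or below the median under mark 1 and 102 and 103 under mark 2. Tnrc6b had 26 and 15 under mark 1 and 23 and 23 under mark 2, where the interval of its ratio, 0.893 to 3.11, covers 1. Tnrc6a thus had fewer UMIs at or below the median under both marks, and Ago3 had nearly equal numbers.

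**Figure D5:**
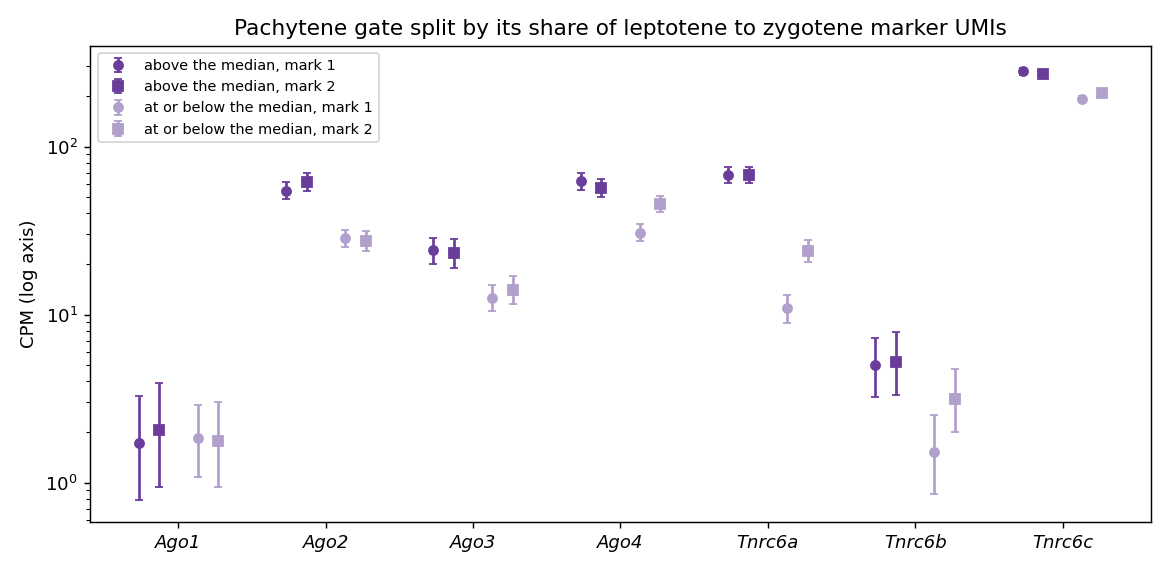
CPM (log axis) of each gene in pachytene barcodes above (dark) and at or below (light) the median of the leptotene to zygotene marker list, under mark 1 (circles) and mark 2 (squares), with exact Poisson 95% intervals. Tnrc6a shows the widest gap, 67.8 and 67.9 CPM above the median against 10.9 and 24.1 CPM at or below it, while Ago1 overlaps between the sides.

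Other gates were split in the same way. In early round spermatids, Tnrc6b had 6.05 and 5.24 CPM in barcodes above the median of the diplotene and dividing list, against 9.40 and 7.89 CPM at or below it. Spermatogonia were split at the median of their undifferentiated minus differentiating marker share, and barcodes above over those at or below it gave Tnrc6a ratios of 1.06 (0.794 to 1.42) and 1.04 (0.784 to 1.39) and Tnrc6c ratios of 0.904 and 1.23. Tnrc6b had ratios of 1.31 (0.909 to 1.89) and 1.40 (0.979 to 2.02). None of these genes reached 1.5-fold there. The share of all genes past 1.5-fold was not computed for the early round and spermatogonia splits.

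A further 53 and 34 barcodes carried the markers of spermatogonia and of leptotene to zygotene cells together, and stood in neither gate. They had 131 and 120 CPM of Tnrc6a, 87.2 and 106 CPM of Tnrc6b and 242 and 250 CPM of Tnrc6c. Ago2 had 7.81 and 2.36 CPM there, on 6 and 1 UMIs. These levels lay below those of the low-RNA barcodes, 8.82 and 7.14 CPM, and are not told apart from background. Ago3 had 87.2 and 49.5 CPM.

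The genes with enough UMIs for a call were lower in Sertoli cells than in spermatogonia. In Sertoli cells against spermatogonia, 5 of 5 measured genes were called lower, beside 39.2% of 10043 genes, and 0 higher, beside 32.1%. Ago2 and Ago4 were not measured. Ago2 went the other way, with 8.15 CPM (5.04 to 12.5) and 8.32 CPM (4.93 to 13.1) in Sertoli cells and 6.09 and 3.45 CPM in spermatogonia. Its low-RNA levels, 8.82 and 7.14 CPM, lay within the Sertoli intervals. Ago4 had 5.04 and 5.08 CPM in Sertoli cells and 9.89 and 10.3 CPM in spermatogonia. Ago1 had 2 and 1 UMIs in Sertoli cells, Ago3 4.66 and 3.23 CPM, Tnrc6a 13.2 and 14.8 CPM, Tnrc6b 17.5 and 18.5 CPM and Tnrc6c 40.4 and 44.4 CPM. The low-RNA barcodes had 4.99 and 4.56 CPM of Ago3, 11.2 and 8.31 CPM of Tnrc6a, 14.4 and 12.7 CPM of Tnrc6b and 71.2 and 66.6 CPM of Tnrc6c. The Sertoli levels of Ago1, Ago3, Ago4 and Tnrc6c were at or below those, and are read as background. Tnrc6a under mark 2 was above it, with 14.8 CPM (10.1 to 20.9) in Sertoli cells and 8.31 CPM (7.36 to 9.34) in low-RNA barcodes, while the intervals of Tnrc6a under mark 1 and of Tnrc6b under both marks overlapped those of the low-RNA barcodes.

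The other somatic gates gave few UMIs, and their estimated free-RNA shares were high. These were 63.2% and 96.1% in Leydig cells and 67.3% and 77.0% in macrophages. T or NK cells had 88.5% and 78.2%, and stromal or peritubular cells 65.0% and 56.4%. In stromal or peritubular cells Tnrc6a had 62.1 CPM (35.5 to 101) and 59.9 CPM (28.7 to 110), and Tnrc6b had 66.0 CPM (38.5 to 106) and 71.9 CPM (37.1 to 126). These rest on 10 to 17 UMIs, under the minimum of 20, so 0 of the 7 genes were measured in any of the 4 comparisons with Sertoli cells. Of all genes measured, 7.32% were called higher and 15.6% lower in Leydig cells, 7.12% and 18.4% in macrophages, 4.75% and 16.9% in T or NK cells and 7.22% and 18.3% in stromal or peritubular cells. Of Tnrc6b, Leydig cells had 31.3 and 24.4 CPM, macrophages 18.6 and 21.6 CPM and T or NK cells 35.6 and 26.5 CPM, with intervals that overlap those of Sertoli cells, 12.7 to 23.4 and 13.2 to 25.2. Of Ago2, macrophages had 37.2 and 18.0 CPM, T or NK cells 32.4 and 10.6 CPM, stromal or peritubular cells 31.1 and 5.99 CPM and Leydig cells 10.4 and 3.05 CPM. These Ago2 levels rest on 1 to 10 UMIs.

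Across the 14 pairs of germ gate and mark, log2(CPM + 5) of Ago2 and Ago4 correlated at r = 0.97, Ago3 and Tnrc6a at 0.95, Ago1 and Tnrc6a at 0.93, and Ago2 and Tnrc6b at 0.12. The points share gates, libraries and free RNA, so that these values only describe the curves. Over all 12 gates and both marks, the genes most like each member among 10917 genes were Zfp68, Rasa2 and Rai1 for Ago1 (r from 0.91 to 0.93) and Syvn1, Fbf1 and Gapvd1 for Ago2 (0.85 to 0.87). Ago3 was most like Ints8, Zfp518a and Nup93 (0.95 to 0.98), and Ago4 most like Gml2, Zwilch and Tex101 (0.91 to 0.92), of which Tex101 is a marker of the pachytene gate. Tnrc6a was most like Prrc2c, Kat6a and Syncrip (0.97 to 0.98), Tnrc6b most like Fam50a, Huwe1 and Zfp266 (0.93 to 0.94) and Tnrc6c most like Nap1l1, Mbtd1 and Ppig (0.96 to 0.97).

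Genes that work with the complex were taken from lists of its pathway. At the step into pachytene, 8 of 14 measured microRNA processing genes were called lower and 1 higher, beside 31.7% and 26.5% of all genes measured. Dicer1, which cuts the microRNA precursor, had 3.39 and 5.64 CPM in pachytene cells, against 81.5 and 86.1 CPM in leptotene to zygotene cells, 24.1-fold and 15.3-fold lower. Lin28b, which blocks let-7 processing, was 4.52-fold and 3.33-fold lower.

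Of 16 decapping and decay genes, 9 were lower and 2 higher at that step, beside the same 31.7% and 26.5%. Patl1, which links deadenylation to decapping, had 1.33 and 1.28 CPM in pachytene cells and 24.1 and 27.5 CPM in leptotene to zygotene cells, 18.1-fold and 21.5-fold lower. Lsm14a, a P-body protein, was 10.9-fold and 7.33-fold lower. Of 17 deadenylase genes, 3 were lower and 0 higher, fewer in each direction than the 31.7% and 26.5% of all genes. Among those called, Cnot6l, a catalytic subunit of CCR4-NOT, was 8.85-fold and 6.54-fold lower and the ribonuclease Parn 4.11-fold and 3.46-fold lower.

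Of 11 genes of Argonaute loading and turnover, 2 were higher and 2 lower in pachytene cells, both under the shares of all genes, 26.5% and 31.7%. Wtip, a LIM-domain protein, was 6.16-fold and 3.08-fold lower, Hspa8, a chaperone of Argonaute loading, 3.78-fold and 2.61-fold lower, and Fkbp4, a co-chaperone of HSP90, 2.93-fold and 2.35-fold higher. Of 7 genes of poly(A)-binding proteins and their partners, 3 were higher and 2 lower, beside the same shares, with Pabpc6 4.66-fold and 2.66-fold higher and Paip2b, an inhibitor of poly(A)-binding protein, 9.37-fold and 4.71-fold lower. Of the PIWI genes only Piwil2 was measured outside the gate markers, and it was not called at that step.

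After pachytene, in diplotene and dividing cells, 9 of 15 microRNA processing genes were lower and 2 higher, and 11 of 17 deadenylase genes were lower and 2 higher, beside 32.9% of all genes lower and 26.3% higher. Dicer1 was 10.1-fold and 11.8-fold lower, Drosha, which makes the first cut of a microRNA precursor, 5.82-fold and 8.82-fold lower, and Cnot8, a deadenylase subunit, 5.86-fold and 7.32-fold lower, as was Tob2, an adaptor of CCR4-NOT, by 4.26-fold and 4.64-fold. Piwil2 was 5.44-fold and 8.72-fold lower. Poly(A)-binding protein genes had 2 of 7 lower and 0 higher, beside the same shares.

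In later round against early round spermatids, where Tnrc6b was past 1.5-fold under mark 1 alone, 10 of 15 deadenylase genes were lower and 3 higher, beside 39.7% and 15.4% of all genes. Parn, a poly(A)-specific ribonuclease, had 107 and 94.9 CPM in later round spermatids and 13.4 and 12.6 CPM in early round spermatids, 8.02-fold and 7.55-fold higher. Tob1, an adaptor of CCR4-NOT, was 5.08-fold and 4.56-fold higher. Parn and Tob1 are among the 3 higher deadenylase genes, and the 10 lower ones are not named. Of 14 decapping and decay genes, 3 were higher and 2 lower, beside the same shares of all genes. Among the higher ones, the decapping factor Dcp1a was 6.31-fold and 5.09-fold higher. Gigyf2, a translational repressor, was 2.60-fold and 3.49-fold higher.

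The marks were compared within each gate. At 1.5-fold, 0 of 6 differed in diplotene and dividing cells, beside 7.17%, 0 of 6 in early round spermatids, beside 6.61%, 0 of 3 in Sertoli cells, beside 8.14%, and 0 of 1 in T or NK cells, beside 19.2%. No gene was measured in macrophages, where 19.4% of genes differed, in Leydig cells (24.5%) or in stromal or peritubular cells (21.6%). Further, 0 of 5 measured genes differed in spermatogonia, beside 9.25% of 9125 genes, and 0 of 7 in pachytene cells, beside 11.0% of 12490 genes. Ago2 in leptotene to zygotene cells (1 of 6, beside 10.1%), Tnrc6b in later round spermatids (1 of 2, beside 9.33%) and Tnrc6b in elongating spermatids (1 of 6, beside 8.28%) were past it, each higher under mark 1. Which genotype each mark holds was not tested.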

How the data were processed

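The authors deposited 1 table of UMI counts per gene and barcode, whole numbers that were not normalised, from 10x 3′ libraries of total testicular cells. Build GRCm38, Seurat 3.2.2 and Cell Ranger 1.3.1 are listed per the submitters' processing notes. Totals were 158740437 UMIs under mark 1 and 168967776 under mark 2, and 73 barcode sequences occurred under both marks. The planned comparison of knockout with wild type was not made, since the table ties no barcode to a genotype.

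The 7 genes and the lists were chosen with earlier results of these data known. Gate cuts, the comparisons of pachytene with spermatogonia and of elongating spermatids with pachytene, and the splits of gates were set after seeing the table. A barcode that passed several gates was left out. Named were all 7 genes, the 3 genes most like each by Pearson r of log2(CPM + 5) among genes with at least 20 CPM in a gate under both marks, and pathway genes with the largest log2 ratio among those called. Of the deposited counts, sums per gate and mark were turned to CPM, with exact Poisson, binomial and conditional binomial 95% intervals. A gene at 0 UMIs was set to a floor of 3 counts in a ratio. Scrublet in scanpy 1.11.5 (expected share 10%) called 0 barcodes under mark 1, so it did not work there, and 218 (1.42%) under mark 2; doublets were kept. No error rate of the call rule is given. TMM factors came from edgeR 4.0.16 and other steps from Python 3.11.15, numpy 2.4.6 and scipy 1.17.1. Alternatives were TMM scaling, no count minimum, 2-fold, gate cuts 1.5 times stricter or looser, means over barcodes, free RNA subtracted and no Scrublet calls. Each mark alone, no shared barcode sequences and a 10000-UMI minimum in every germ gate were added after seeing the data.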

Additional observations from a re-analysis of the deposited data

How the results depend on the processing

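Of 264 recomputed values, 22 germ calls under 12 alternatives, 231 stayed past the threshold in the same direction, 30 kept the direction but missed it and 3 turned. No count minimum, mark 1 alone and mark 2 alone only loosen the call rule. No call could be lost under them, so their values among the 231 do not speak for stability. The 4 higher germ calls became 9 with TMM scaling, 7 with means over barcodes, 7 under mark 1 alone, 7 under mark 2 alone, 2 at 2-fold, 2 with looser gates and 2 with the 10000-UMI minimum in every germ gate. The 18 lower calls became 10 with stricter gates. The shares of all genes called under these alternatives were not computed. Higher somatic calls, 0 in the text, became 10 without the count minimum and 1 under mark 1 alone. The Ago2 and Ago4 share was 85.1% in pachytene cells under mark 1 with stricter gates, and 11.9% in spermatogonia under mark 2 with free RNA subtracted. With stricter gates the mean log2 ratio of Ago3, elongating spermatid over later round spermatid, was -2.18 and that of Ago3, later round spermatid over early round spermatid, 1.76, because later round spermatids then had 0 UMIs of Ago3 and were set to the floor, so these are no measured reversals. That of Tnrc6b, elongating spermatid over later round spermatid, was 0.18 with TMM scaling, which shifts every ratio of that step. The loss of Tnrc6b in pachytene cells stayed past the threshold under all 12 alternatives, as did the higher Ago2 in pachytene cells over spermatogonia. Under the alternatives that only loosen the rule this was fixed in advance. No paired analysis was possible because the barcodes carry no replicate numbers and no comparison has a test. Depth limits the spermatid and somatic values, where several members had under 20 UMIs in a gate.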
